A study of Mus musculus with 10 samples.

Results

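The MYC network is a set of transcription factors of the basic helix-loop-helix leucine zipper class, and 10 of its genes were taken by gene symbol from a table of 24525 genes: Myc, Mycn, Mycl, Max, Mxd1, Mxd3, Mxd4, Mxi1, Mnt and Mga. All 10 were in the table, and all 10 averaged 1 FPKM or more across the libraries, the filter used here. FPKM counts fragments per length of transcript, scaled to the library's mapped fragments, and is a level per length. The libraries come from male mice of strain C57BL/6 (C57BL/6N in the growth protocol) of 7 weeks at the start. The mice received azoxymethane (AOM), a mutagen, at 12.5 mg/kg, and then dextran sulfate sodium (DSS), an irritant of the colon lining, in 3 cycles with 2% DSS for 5 days and water for 16 days in each. Colorectal tumours taken 10 weeks after AOM gave 5 libraries, and these are set against 5 libraries of adjacent colon from mice with the same treatment. No library is labelled as from an untreated mouse, so the adjacent tissue has also been through AOM and DSS. The source label names 1 mouse for all 10 libraries while the treatment protocol counts 12 treated mice, and the p-values therefore cover only the variation among these samples, which could be technical.

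MYC, MYCN and MYCL bind DNA at E-box sequences as partners of MAX and raise transcription of genes for growth, ribosome assembly and cell division. The MXD proteins (MXD1, MXD3, MXD4 and MXI1) and MNT compete for MAX and for the same E-boxes and recruit SIN3 corepressor complexes. MGA is a large MAX partner with a second DNA-binding domain of the T-box class and belongs to a Polycomb-related repressor complex. In the gut, MYC is a target of Wnt signalling in crypt cells, and MXD1 is known from cells that have left the cell cycle and differentiate.

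Of the 10 members, 9 matched the RefSeq promoter table (GRCm38.p6, the same assembly as mm10), which gives 250 bases before and 50 after each annotated start. Myc had no entry in it, so the Myc promoter was not searched for any motif. The canonical E-box, CACGTG, which reads the same on both strands, stood in the windows of 3 members, Max, Mnt and Mxd4, against 7.2% of all 32851 promoter windows and 11.4% of the 10044 genes that had a window and passed the expression filter, as all members did. These 3 are shown because the data below, with FPKM as deposited, give them 3 different outcomes. Capitals mark the E-box.
Max, chr12:76962219-76962278, minus strand: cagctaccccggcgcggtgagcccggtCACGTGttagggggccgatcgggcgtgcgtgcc
Mnt, chr11:74830774-74830833, plus strand: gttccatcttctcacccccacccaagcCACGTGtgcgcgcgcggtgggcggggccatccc
Mxd4, chr5:34187897-34187956, minus strand: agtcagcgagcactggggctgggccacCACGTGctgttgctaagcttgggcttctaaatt
The E-box begins 3 bases before the annotated start of Max, 123 before that of Mnt and 219 before that of Mxd4.

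The variant E-box CACGCG, searched on both strands, was found in the windows of Mycl and Mga. It was in 9.3% of all windows, and 19.3% of tested genes with a window held it in at least 1. The 2 of 9 members are near that share of genes. In Mycl and Mga it begins 20 and 21 bases before the starts. The stretches are shown because Mycl had the largest rise among the members, and capitals mark the variant E-box, which the stretch of Mga holds on the other strand.
Mycl, chr4:122995884-122995943, plus strand: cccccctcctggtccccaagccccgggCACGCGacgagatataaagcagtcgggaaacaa
Mga, chr2:119897180-119897239, plus strand: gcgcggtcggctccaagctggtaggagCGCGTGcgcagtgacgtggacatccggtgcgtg
The window of Mycn held the E2F motif TTTGGCGC at 2 places, 183 and 168 bases before the start. At least 1 match on either strand was in 0.5% of all windows and in 1.1% of tested genes with a window. The Mycn window also held the TCF/LEF motif CTTTGA, read as TCAAAG, which was in 16.0% of all windows and in 14.4% of tested genes with a window. The E2F stretch is shown with the motif in capitals.
Mycn, chr12:12941970-12942046, minus strand: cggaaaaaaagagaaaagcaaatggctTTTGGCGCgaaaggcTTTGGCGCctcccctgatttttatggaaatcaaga
A second E2F motif, TTTCCCGC, was in none of the members' windows, in 1.1% of all windows and in 2.3% of tested genes with a window. The windows of Mxd1, Mxd3 and Mxi1 held none of the 5 motifs in either orientation. No motif of the set overlapped another in the windows of the genes shown.

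Tumours had more RNA of Myc and Mycl and less of Max and of Mxd1, the member with by far the highest level in adjacent colon. Mycn also rose with FPKM as deposited, but its groups overlapped. Its call was lost with library medians subtracted and with quantile normalization. Of the 10 members 6 rose and 2 fell in tumours, and Mxd4 and Mxi1 did not pass the test (limma on log2(FPKM + 1), Benjamini-Hochberg adjusted p under 0.05 over 13016 genes). Among all genes tested 76.5% passed, 57.2% as rises and 19.3% as falls, so 8 of 10 members is close to the background. The median log2 change was 0.63 for the members and 0.35 for all genes. With each library's median subtracted, which removes that common shift, 67.7% of all genes passed (34.5% as rises and 33.3% as falls), and 5 members rose and 4 fell. The groups did not overlap for 7 members, 5 higher and 2 lower in tumours, against 60.9% of all genes tested (46.5% higher and 14.3% lower).

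**Figure D1:**
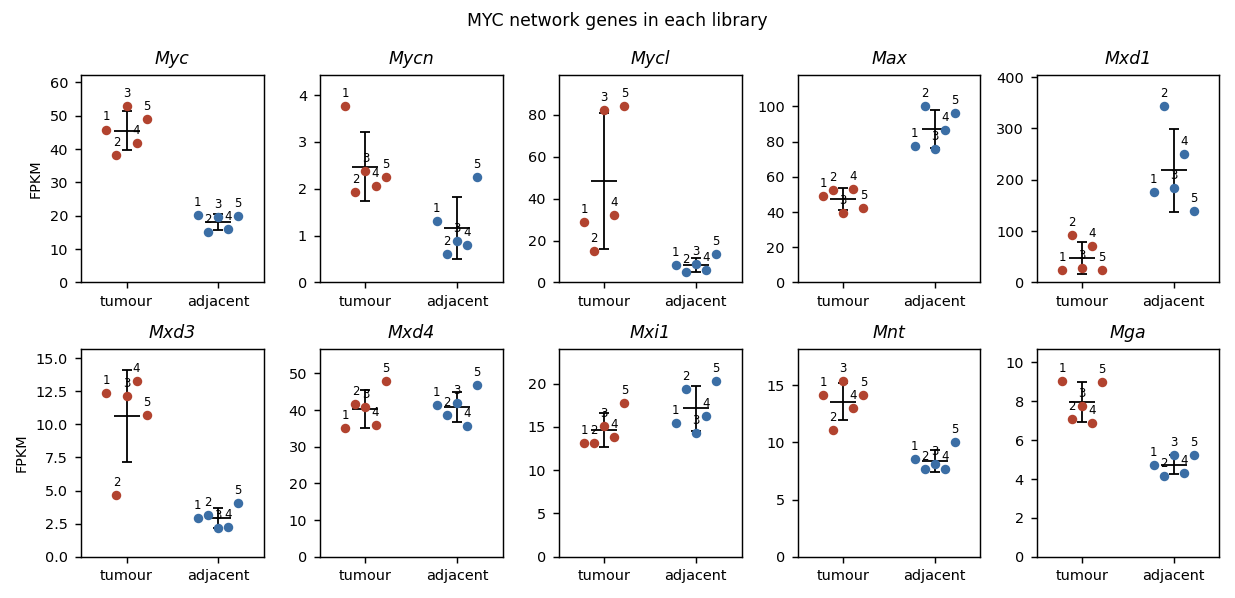
FPKM (linear axis from 0, a scale for each gene) of the 10 members in tumours (left in each panel) and adjacent samples (right); numbers are library numbers, and the bar is the mean with its SD (n = 5 per group). Tumours lie apart from adjacent samples for Myc, Mycl, Max, Mxd1, Mxd3, Mnt and Mga, while Mycn, Mxd4 and Mxi1 overlap.

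Myc (chromosome 15, 61985341 to 61990361, GRCm38), the founding member and a driver of growth in crypt epithelium, was at 45.9, 38.1, 52.9, 41.7 and 49.0 FPKM in tumours 1 to 5, against 20.3, 15.1, 19.6, 15.9 and 19.9 FPKM in adjacent samples 1 to 5. Every tumour was above every adjacent sample, and both groups were tight, with a coefficient of variation of 12.8% in tumours and 13.4% in adjacent samples. The means were 45.5 ± 5.81 FPKM in tumours and 18.2 ± 2.43 FPKM in adjacent samples (SD, n = 5 each), a ratio of 2.51. The log2 change was 1.28 (SE 0.11, limma adjusted p = 1.59e-05), and 0.95 with library medians subtracted (limma adjusted p = 1.36e-05). An exact two-sided permutation test of Myc alone over 252 splits gave p = 0.00794, the smallest it can give.

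Mycl (chromosome 4, 122995588 to 123002490), the gene of L-MYC, had the largest rise of the network. It was at 28.8, 15.0, 82.4, 32.0 and 84.1 FPKM in tumours, against 8.45, 5.19, 8.76, 5.92 and 13.6 FPKM in adjacent samples. The groups did not overlap, but tumours 3 and 5 stood far above the other 3, and tumour 2 was only just above adjacent sample 5. Its log2 change was 2.18 (SE 0.45, limma adjusted p = 0.00133), and 1.92 to 2.52 when any 1 library was left out. Mean levels were 48.5 ± 32.4 FPKM in tumours and 8.39 ± 3.31 FPKM in adjacent samples (SD, n = 5 each), a ratio of 5.78.

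Mycn (chromosome 12, 12936093 to 12941836), the gene of N-MYC, was the lowest member in both groups. It was at 3.76, 1.94, 2.37, 2.05 and 2.24 FPKM in tumours, against 1.32, 0.60, 0.88, 0.79 and 2.26 FPKM in adjacent samples. Adjacent sample 5 reached the level of the tumours, so the groups overlapped. Its log2 change was 0.70 (SE 0.20, limma adjusted p = 0.00883), which was not past the threshold with library medians subtracted (0.37, limma adjusted p = 0.0990) or with quantile normalization (0.24, limma adjusted p = 0.296).

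Within the 3 MYC genes the makeup differed among tumours. Mycl made up 36.8%, 27.3%, 59.9%, 42.2% and 62.1% of their summed FPKM in tumours 1 to 5, against 28.1%, 24.8%, 30.0%, 26.1% and 38.1% in adjacent samples 1 to 5. In tumours 3 and 5 Mycl was above Myc, at 1.56 and 1.72 times its FPKM, and in the other 3 tumours and all 5 adjacent samples it was below Myc. The summed level of the 3 genes was 55.1 to 138 FPKM in tumours and 20.9 to 35.8 FPKM in adjacent samples. These sums and shares describe the libraries and were not tested.

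Max (chromosome 12, 76937269 to 76962323), the partner with which MYC, MXD, MNT and MGA proteins bind E-boxes, fell. It was at 49.4, 52.6, 39.5, 52.9 and 42.5 FPKM in tumours, against 77.6, 100.1, 76.0, 86.7 and 96.2 FPKM in adjacent samples. The highest tumour was well below the lowest adjacent sample, and the coefficients of variation were 12.8% in tumours and 12.4% in adjacent samples. The log2 change was -0.87 (SE 0.11, limma adjusted p = 5.53e-05), and -1.20 with library medians subtracted (limma adjusted p = 3.22e-05). Max averaged 47.4 ± 6.08 FPKM in tumours and 87.3 ± 10.8 FPKM in adjacent samples (SD, n = 5 each).

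Mxd1 (chromosome 6, 86647044 to 86669234), the repressor of the network known from differentiating cells, had the largest fall. Tumours 1 to 5 were at 24.2, 91.9, 28.6, 70.6 and 23.9 FPKM, against 176, 343, 184, 250 and 139 FPKM in adjacent samples 1 to 5. All tumours were below all adjacent samples, but tumours 2 and 4 stood well above the other 3 tumours. The mean was 4.57 times higher in adjacent samples, at 47.8 ± 31.5 FPKM in tumours and 219 ± 80.3 FPKM in adjacent samples (SD, n = 5 each). The log2 change was -2.33 (SE 0.41, limma adjusted p = 0.000464), and it lay between -2.62 and -2.15 when any 1 library was left out. By log2 change Mxd1 was the 198th lowest of the 13016 genes tested.

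Mxd3 (chromosome 13, 55325170 to 55329900), the family member known from dividing cells, went the other way. It was at 12.4, 4.64, 12.1, 13.3 and 10.7 FPKM in tumours, against 2.95, 3.12, 2.17, 2.27 and 4.04 FPKM in adjacent samples. Tumour 2 lay just above the highest adjacent sample, and the other 4 tumours were well above it. The log2 change was 1.52 (SE 0.25, limma adjusted p = 0.000256), and without tumour 2 it was 1.76. Mxd3 overlaps the gene Prelid1 in RefSeq, and the library kit does not mark strand, so reads of the shared stretch cannot be assigned by strand; Prelid1 was at 214 to 276 FPKM in tumours and 241 to 266 FPKM in adjacent samples.

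Mxd4 (chromosome 5, 34176580 to 34187710) and Mxi1 (chromosome 19, 53310128 to 53373293), MXD repressors also present in resting cells, did not pass. Mxd4 was at 35.2, 41.7, 40.9, 35.9 and 48.1 FPKM in tumours, against 41.4, 38.6, 41.8, 35.7 and 46.8 FPKM in adjacent samples, with a log2 change of -0.02 (SE 0.10; adjusted p = 0.854 in limma). Mxi1 was at 13.2, 13.1, 15.1, 13.9 and 17.8 FPKM in tumours, against 15.5, 19.4, 14.3, 16.2 and 20.4 FPKM in adjacent samples, with a log2 change of -0.21 (SE 0.11; adjusted p = 0.109 in limma). The ranges of the groups overlapped for both genes. Against the common shift of all genes both were lower in tumours: with library medians subtracted Mxd4 was at -0.35 (limma adjusted p = 0.00605) and Mxi1 at -0.55 (limma adjusted p = 0.00247). With quantile normalization Mxi1 passed at -0.49 (limma adjusted p = 0.00387) and Mxd4 did not, at -0.12 (limma adjusted p = 0.319).

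Mnt and Mga rose by similar amounts. Mnt (chromosome 11, 74830806 to 74845725), a widely expressed repressor that binds MAX, was at 14.2, 11.1, 15.4, 12.98 and 14.1 FPKM in tumours, against 8.56, 7.67, 8.15, 7.69 and 10.0 FPKM in adjacent samples. Its log2 change was 0.63 (SE 0.10, limma adjusted p = 0.000195). Mga (chromosome 2, 119872503 to 119970129) was at 9.07, 7.08, 7.78, 6.88 and 8.97 FPKM in tumours, against 4.73, 4.17, 5.25, 4.33 and 5.25 FPKM in adjacent samples, for a log2 change of 0.64 (SE 0.10; adjusted p = 0.000188 in limma). Neither pair of groups overlapped. With library medians subtracted Mnt was at 0.30 (limma adjusted p = 0.00712) and Mga at 0.31 (limma adjusted p = 0.00717), and with quantile normalization Mga did not pass (0.19, limma adjusted p = 0.0733).

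**Figure D2:**
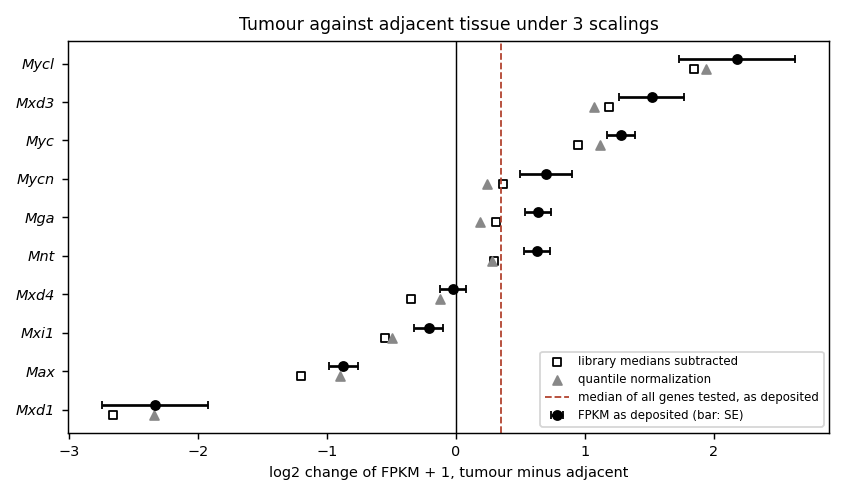
Log2 change of FPKM + 1, tumour minus adjacent, for each member from the FPKM as deposited (points with SE) and under 2 other scalings; the dashed line is the median of all 13016 genes, 0.35. Mycl, Mxd3, Myc, Mnt, Max and Mxd1 keep their sign and their call under all 3 scalings, while Mycn, Mga, Mxd4 and Mxi1 cross the threshold under at least 1.

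The order of the levels differed between the tissues. In tumours the means were highest for Mycl, Mxd1, Max, Myc and Mxd4, at 48.5, 47.8, 47.4, 45.5 and 40.3 FPKM, and the ranges of neighbours in this order overlapped. Then came Mxi1, Mnt and Mxd3, at 14.6, 13.6 and 10.6 FPKM, and Mga at 7.96 FPKM, again with overlapping neighbours, and Mycn stood apart at 2.47 FPKM. In adjacent samples Mxd1 stood alone at 219 FPKM, followed by Max at 87.3 and Mxd4 at 40.8 FPKM, with no overlap between these neighbours. Myc, at 18.2 FPKM, overlapped Mxi1, at 17.1 FPKM, and Mnt, Mycl and Mga overlapped in turn at 8.42, 8.39 and 4.75 FPKM. Mxd3, at 2.91 FPKM, overlapped Mycn, at 1.17 FPKM. By mean level Mycl was thus first in tumours and seventh in adjacent samples. In tumours 1, 2 and 4 Mycl was below Myc, Max and Mxd4.

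The levels were also set against each other within each library, as a description with no test. The 5 antagonists that bind MAX (Mxd1, Mxd3, Mxd4, Mxi1 and Mnt) summed to 99.1 to 162 FPKM in tumours and 220 to 412 FPKM in adjacent samples. The ratio of Myc to this sum was 0.463, 0.235, 0.471, 0.285 and 0.427 in tumours, against 0.0828, 0.0367, 0.0782, 0.0511 and 0.0904 in adjacent samples. The mean ratio was 0.376 ± 0.109 in tumours and 0.0678 ± 0.0228 in adjacent samples (SD, n = 5 each), 5.55 times higher in tumours, with no overlap. With Mycl and Mycn added to Myc, the ratio was 0.339 to 1.23 in tumours and 0.0508 to 0.162 in adjacent samples, and the 3 MYC genes exceeded the antagonists in tumours 3 and 5.

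The difference in the antagonists lay in Mxd1. Its share of the antagonists' FPKM was 20.9% to 56.6% in tumours, highest in tumours 2 and 4, and 63.2% to 83.3% in adjacent samples. Without Mxd1 the other 4 antagonists summed to 79.1 ± 7.95 FPKM in tumours and 69.3 ± 7.17 FPKM in adjacent samples (SD, n = 5 each), with overlapping ranges. The ratio of Myc to these 4 was 0.540 to 0.633 in tumours and 0.220 to 0.296 in adjacent samples. Mxd3 made up 2.86% to 12.5% of the antagonists in tumours and 0.728% to 1.83% in adjacent samples. Max, set against the sum of the MYC genes and antagonists, was at 0.158 to 0.278 in tumours and 0.231 to 0.375 in adjacent samples, with overlap.

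**Figure D3:**
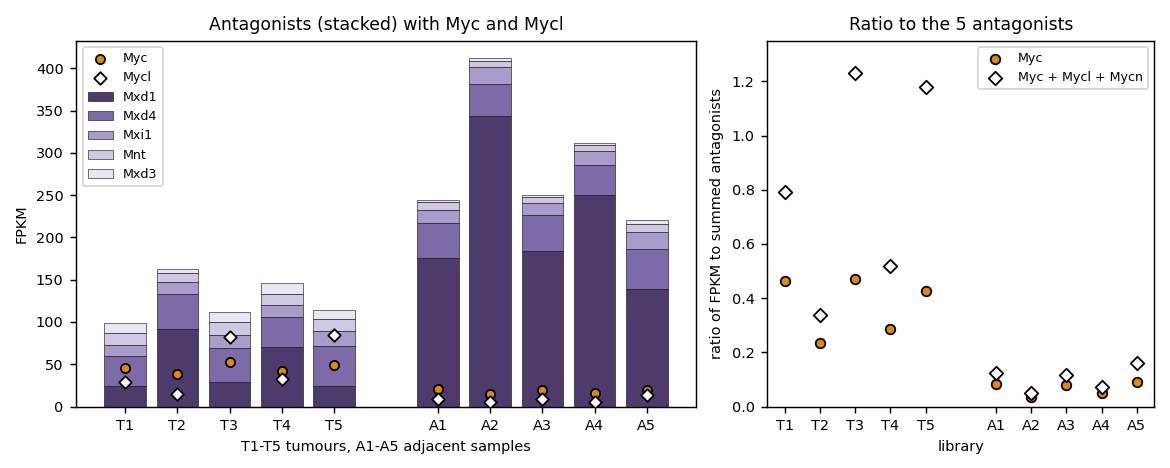
Left, FPKM of the 5 antagonists stacked per library, with Myc (circles) and Mycl (diamonds) as points, for tumours T1 to T5 and adjacent samples A1 to A5; right, the ratio of Myc, and of the 3 MYC genes together, to the summed antagonists. Antagonists sum to at most 162 FPKM in tumours and at least 220 FPKM in adjacent samples, and the Myc ratio is at least 0.235 in tumours and at most 0.0904 in adjacent samples.

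Library totals were 462009 to 484712 FPKM, and a rough depth from the steps between low values was 20800000 to 26300000 fragments per library with full transcript lengths, with a ratio of 1.26 between the deepest and the shallowest. Markers of the epithelium (6 of 6 tested, 1 higher and 5 lower in tumours) summed to 3635 to 5741 FPKM in tumours and 6479 to 8031 FPKM in adjacent samples, so both tissues held epithelium. In bulk tissue, fewer cells of a type and less RNA per cell cannot be told apart. Fibroblast, endothelial, macrophage and neutrophil markers (all 18 tested rose) and proliferation markers (6 of 6 rose) moved with the groups; enteric neuron, T cell, B cell and dendritic cell markers were low, with at most 42.9 FPKM summed over any 1 of these lists. Of 4 smooth muscle markers 2 rose, and all 5 enteroendocrine markers fell.

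Mxd1 moved with the markers of mature surface colonocytes. All 5 of these markers (Car4, Slc26a3, Aqp8, Krt20 and Guca2a) fell, and they summed to 82.7, 617, 67.9, 358 and 104 FPKM in tumours 1 to 5, against 2368 to 3964 FPKM in adjacent samples. The same 2 tumours, 2 and 4, that kept the most Mxd1 kept the most of these markers and of the 5 goblet cell markers, which summed to 2099 and 2565 FPKM in them and to 493 to 734 FPKM in tumours 1, 3 and 5. This order was not particular to these cells. Epithelium (5741 and 4750 FPKM), fibroblast (964 and 822) and macrophage (221 and 147) markers were also highest in tumours 2 and 4. So were smooth muscle, T cell, B cell and dendritic cell markers. Enteroendocrine (lowest in tumour 2, at 4.95 FPKM), endothelial, enteric neuron, proliferation and neutrophil markers did not have this order. Without tumours 2 and 4 the log2 change of Mxd1 was -2.98, a larger fall that leaving out the tumours with the most Mxd1 brings by construction. Max was also highest among tumours in 2 and 4, at 52.6 and 52.9 FPKM, with tumour 1 close at 49.4 FPKM. The part of these markers' cells in the Mxd1 and Max results was not tested. None of these marker genes was at 0 in all libraries.

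Myc and Mycl lay highest in the tumours with the most proliferation and neutrophil marker RNA. The 6 proliferation markers summed to 340, 255, 437, 344 and 390 FPKM in tumours 1 to 5, and to 126 to 171 FPKM in adjacent samples. The 4 neutrophil markers summed to 152, 112, 311, 302 and 410 FPKM in tumours 1 to 5, and to 10.8, 25.5, 25.4, 11.1 and 132 FPKM in adjacent samples 1 to 5. Tumours 3 and 5 had the highest sums of both lists, the highest Myc and the highest Mycl, and tumour 2 the lowest of each. From low to high, Mycl put the 5 tumours in the same order as the summed FPKM of the neutrophil markers. Adjacent sample 5 was the highest of its group in both. By the mean log2(FPKM + 1) of the neutrophil markers, tumours 3 and 4 were at 5.22 and 5.23, so by that measure the order was not the same. These orders rest on 5 libraries a group, and the part of neutrophils or dividing cells in the Myc and Mycl results was not tested. Fibroblast markers summed to 571 to 964 FPKM in tumours, highest in tumour 2, and to 74.4 to 191 FPKM in adjacent samples.

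**Figure D4:**
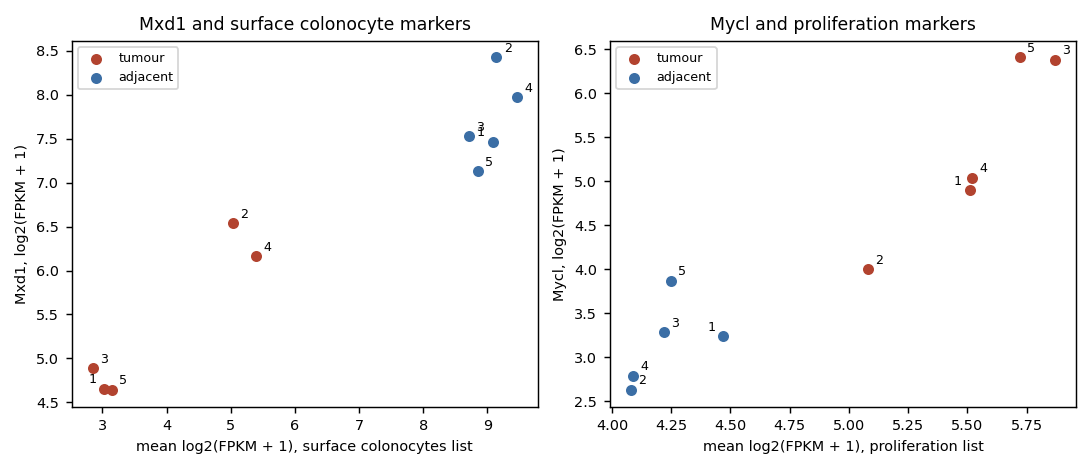
Log2(FPKM + 1) of Mxd1 against the mean log2(FPKM + 1) of the surface colonocyte markers, and of Mycl against that of the proliferation markers, for tumours and adjacent samples with their library numbers. Tumours 2 and 4 lie highest among tumours for Mxd1 and its marker list, and tumours 3 and 5 for Mycl and its marker list; the points show 10 libraries in 2 separate groups, so no correlation is given.

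After subtraction of the group means, the genes whose log2(FPKM + 1) followed Myc most closely over the 10 libraries were Whsc1, Nfib, Cct4, Iars and Smc3, with Pearson correlations of 0.990, 0.982, 0.975, 0.974 and 0.973 among 9735 genes compared. They are the highest of many values, share libraries and depth with Myc, and are a description only.

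The MLX branch, a parallel network in which MLX takes the place of MAX beside the glucose-responsive factors MLXIP and MLXIPL, was lower in tumours, as was Max. Changes of it and of the lists that follow are on the log2(FPKM + 1) scale, and are read against 57.2% rises, 19.3% falls and a median of 0.35 over all genes tested. The test called 2 of its 3 genes, both lower in tumours, and the median log2 change was -0.51. All 3 fell with library medians subtracted. Mlx was at 27.1, 45.3, 27.9, 39.4 and 26.9 FPKM in tumours, against 65.0, 73.2, 74.5, 75.3 and 55.3 FPKM in adjacent samples, with no overlap and a log2 change of -1.05 (SE 0.16; adjusted p = 0.000154 in limma). Mlxip fell to 14.8 ± 0.559 FPKM in tumours, against 21.5 ± 1.96 FPKM in adjacent samples (SD, n = 5 each). Tumours 2 and 4 had the highest tumour levels of Mlx, as of Mxd1.

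The coactivators and other protein partners of MYC were mostly higher in tumours. Of 16 genes 15 rose, and Ep300 was not called. Their median log2 change was 0.67, and with library medians subtracted 11 rose and 0 fell. The AAA+ helicase genes Ruvbl1 and Ruvbl2 and the actin-related gene Actl6a, shared by chromatin complexes that MYC recruits, had the largest rises, at 1.20 (SE 0.12), 0.92 (SE 0.11) and 0.98 (SE 0.11). Ruvbl1 was at 31.1, 24.4, 29.6, 25.98 and 31.2 FPKM in tumours, against 13.4, 9.26, 14.1, 10.5 and 12.2 FPKM in adjacent samples. The acetyltransferase gene Ep300 did not pass, at 20.3 FPKM in tumours and 17.9 FPKM in adjacent samples.

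Genes of the corepressors that MXD proteins and MNT recruit were mostly higher in tumours. Of 8 genes 7 rose, and Sin3b was not called. Their median log2 change was 0.83, and with library medians subtracted 5 rose and Sin3b fell. Sap30, a subunit of the SIN3 complex, rose by 1.47 (SE 0.15), the histone deacetylase gene Hdac2 by 1.34 (SE 0.17) and the histone chaperone gene Rbbp4 by 1.12 (SE 0.14). Hdac2 was at 70.3, 47.1, 82.5, 62.4 and 79.2 FPKM in tumours, against 30.9, 19.2, 30.3, 23.8 and 27.04 FPKM in adjacent samples, with no overlap. Partners of MGA in its Polycomb-related complex rose as well, 7 of 7 with a median of 0.83, and 6 with library medians subtracted. Among them Cbx3, a heterochromatin protein gene, was at 96.3 ± 18.2 FPKM in tumours and 40.4 ± 6.67 FPKM in adjacent samples (SD, n = 5 each), and Tfdp1, the E2F partner, rose by 0.87 (SE 0.10), as did Pcgf6, a Polycomb ring finger gene, by 0.88 (SE 0.16).

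Genes whose products set how long MYC protein lasts were mostly higher in tumours, both those that protect it and those that break it down. The test called all 14, 12 as rises and 2 as falls, and their median log2 change was 0.52. With library medians subtracted 7 rose and 3 fell. The kinase gene Aurka, whose protein shields N-MYC from breakdown, rose by 1.32 (SE 0.14). Set and Cip2a (listed as C330027C09Rik), inhibitors of the phosphatase PP2A, rose by 1.21 (SE 0.12) and 1.07 (SE 0.13), while Ppp2r5a, a PP2A subunit that acts against MYC, was at 26.2 ± 2.82 FPKM in tumours and 38.2 ± 2.24 FPKM in adjacent samples, a log2 change of -0.53 (SE 0.08). Genes of ubiquitin ligases for MYC also rose, with Skp2 at 5.12 FPKM in tumours and 1.99 FPKM in adjacent samples, and Fbxw7 at 5.56 FPKM in tumours and 4.00 FPKM in adjacent samples. With library medians subtracted Skp2 still passed (0.70, limma adjusted p = 7.65e-05) and Fbxw7 did not (0.06, limma adjusted p = 0.434). Usp28, a deubiquitinase, fell by 0.36 (SE 0.13, limma adjusted p = 0.0257), a call that was lost without any 1 of adjacent samples 2, 3, 4 and 5 (limma adjusted p 0.0527 to 0.0623) and without tumours 2 and 4 together (limma adjusted p = 0.0842). Protein levels were not analysed here.

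Among factors that act on Myc transcription, 2 partners of beta-catenin moved in opposite directions. The list has 8 genes, of which 7 rose and 1 fell, and their median log2 change was 0.60. After subtraction of library medians 6 rose and 1 fell. Lef1, a partner of beta-catenin, was at 20.6, 8.89, 16.6, 14.5 and 12.6 FPKM in tumours, against 3.48, 1.26, 1.90, 1.28 and 3.49 FPKM in adjacent samples, for a log2 change of 2.27 (SE 0.26; adjusted p = 3.79e-05 in limma). Tcf7l2, another beta-catenin partner and the main one in normal crypts, fell by 0.97 (SE 0.13, limma adjusted p = 6.58e-05), to 11.9 ± 2.06 FPKM in tumours, against 24.2 ± 3.65 FPKM in adjacent samples. Fubp1 and Hnrnpk, which bind single-stranded DNA of the Myc promoter, rose by 0.95 (SE 0.13) and 0.63 (SE 0.08).

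Textbook genes that MYC activates were mostly higher in tumours. The test called 28 of 33 as rises and 1 as a fall, and the list's median log2 change was 0.92. With library medians subtracted 24 rose and 3 fell, and with quantile normalization 28 rose and 0 fell. Cdk4, the kinase of the G1 phase, had the largest rise and was at 245, 139, 231, 203 and 270 FPKM in tumours, against 73.8, 45.4, 62.7, 50.04 and 80.3 FPKM in adjacent samples, for a log2 change of 1.78 (SE 0.20; adjusted p = 3.76e-05 in limma). The amino acid transporter gene Slc7a5 rose by 1.51 (SE 0.15) and the nucleotide hydrolase gene Dnph1 by 1.44 (SE 0.18). Ldha, a lactate dehydrogenase gene, was the one fall: 465, 638, 479, 527 and 655 FPKM in tumours, against 702, 766, 697, 688 and 894 FPKM in adjacent samples, for a log2 change of -0.45 (SE 0.12; adjusted p = 0.00541 in limma), which was -0.29 with quantile normalization (limma adjusted p = 0.0602). Ccnd2, E2f2, Cdc25a and Tfrc did not pass, at 57.1, 7.60, 17.0 and 55.4 FPKM in tumours, against 39.1, 6.98, 15.1 and 65.9 FPKM in adjacent samples. Nme1 and Nme2 of these lists are similar neighbours, and how reads were split between them is not stated in any label. The same holds for Set, Cbx3, Npm1, Ldha and Hspe1, which have processed copies elsewhere in the genome, so their values are uncertain in that respect.

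Textbook genes that MYC represses split into 2 groups. The 14 genes gave 7 falls and 5 rises, and their median log2 change was -0.22. After subtraction of library medians 8 fell and 5 rose. Of the 7 falls, Cebpa, a differentiation factor, and Ddit3, a stress response factor, rest on small margins (log2 changes of -0.35 each, limma adjusted p = 0.0334 and 0.0355). Cebpa was no longer called without any 1 of tumours 1, 3 and 5 or adjacent samples 3, 4 and 5, nor Ddit3 without any 1 of tumours 1 and 3 or adjacent samples 1, 2, 3 and 5 (limma adjusted p 0.0549 to 0.0852), so the count of falls was 5 to 7. The cyclin-dependent kinase inhibitor genes Cdkn1a and Cdkn2b, repressed through the MYC partner ZBTB17, fell by 0.92 (SE 0.14) and 1.31 (SE 0.19), and Ndrg2, a differentiation gene, by 1.31 (SE 0.16). Cdkn1a was at 68.4, 79.6, 70.0, 94.1 and 88.4 FPKM in tumours, against 140, 210, 121, 146 and 152 FPKM in adjacent samples, with no overlap. The 5 that rose were Gas1, Thbs1, Pdgfrb, Cdkn1c and Bcl2; the largest were Gas1, a growth arrest gene, by 2.20 (SE 0.38), the matrix protein gene Thbs1 by 1.93 (SE 0.19) and Pdgfrb, a receptor of fibroblasts and pericytes, by 1.75 (SE 0.12). Fibroblast markers, 6 of 6 of which rose, moved with these 3, and their part in the result was not tested.

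**Figure D5:**
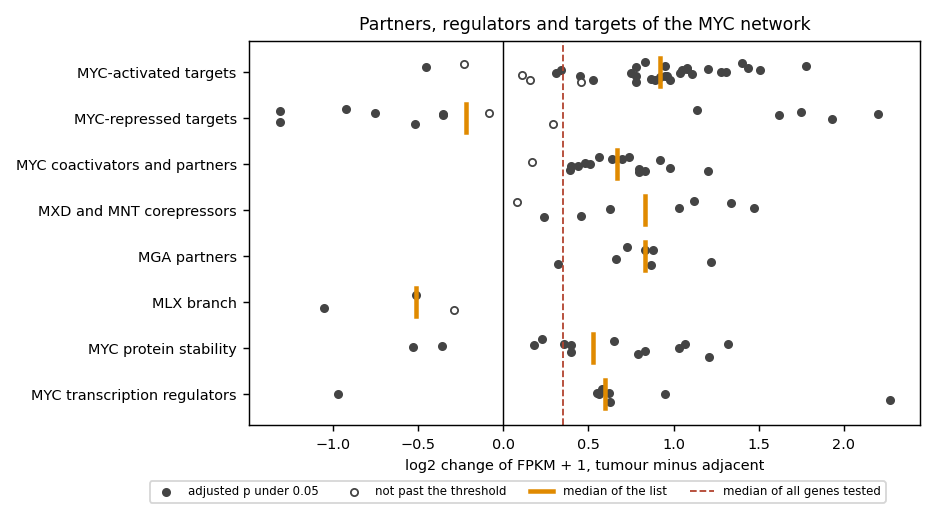
Log2 change of FPKM + 1, tumour minus adjacent, of each gene in 8 lists of targets, partners and regulators (filled: limma adjusted p under 0.05), with each list's median as a bar and the median of all genes, 0.35, as a dashed line. Most activated targets lie to the right of that line, the MLX branch lies left of 0, and the repressed targets fall on both sides.

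Canonical E-boxes were frequent in the promoter windows of the activated targets. Of the 27 that matched the promoter table, 10 held CACGTG (37.0%), against 11.4% of the 10044 tested genes with a window. Of 10 matched repressed targets none held it, which for so few genes is near the 11.4% of tested genes. The activated list was chosen from textbook MYC targets, for which E-boxes are part of the evidence, so its share of 37.0% is a description. The stretch before Cdk4 is shown because it held 4 E-boxes, the most of the list, and had its largest rise; they begin 172, 118, 98 and 11 bases before the annotated start and are in capitals.
Cdk4, chr10:127063336-127063556, plus strand: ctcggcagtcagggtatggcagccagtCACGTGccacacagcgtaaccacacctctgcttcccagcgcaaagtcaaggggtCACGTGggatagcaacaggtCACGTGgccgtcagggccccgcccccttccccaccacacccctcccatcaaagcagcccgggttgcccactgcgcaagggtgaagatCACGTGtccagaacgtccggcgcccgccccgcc
Of the 10 activated targets with an E-box 9 rose and Ldha fell, with a median log2 change of 0.92, and of the 17 without one 14 rose, with a median of 0.87. Over all tested genes with a window, 58.0% of those with CACGTG rose and 57.3% of those without, with a median log2 change of 0.35 in both sets. For Max, Mnt and Mxd4, whose E-box stretches are given above, the log2 changes were -0.87, 0.63 and -0.02. With library medians subtracted they were -1.20, 0.30 and -0.35, so Mxd4 then fell as Max did.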

How the data were processed

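RNA of 5 colorectal tumours and 5 adjacent colon samples was sequenced after oligo-dT selection with the TruSeq RNA v2 kit, per the labels' protocols. The authors deposited FPKM per gene, per the file headers; among the tools in the submitters' processing notes are Cufflinks 2.2.1, TopHat2 2.1.0, Salmon 0.8.2 and RSEM 1.2.15, with DESeq2 1.14.1 and edgeR 3.16.5 and the build mm10, without saying which made the table. One line without values was left out, leaving 24525 genes. No 2 libraries were copies (at least 17741 genes differed).

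log2(FPKM + 1) of the 13016 genes averaging 1 FPKM or more was modelled by group alone in limma 3.58.1 (R 4.3.3), with intensity trend and robust empirical Bayes, two-sided, with Benjamini-Hochberg adjustment at 0.05; this was also tested on simulated data. The scale understates changes of low genes. "Rose" and "fell" mean past that threshold. Single members were also tested by exact permutation (SciPy 1.17.1).

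Depth was estimated from 166 to 197 low values per library of genes with 1 annotated transcript; 62.5% to 74.7% lay within 0.2 of a whole fragment, against at most 52.4% with lengths shuffled 10 times. With 150 bases taken off each length it was 26900000 to 33600000 fragments.

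The members and lists were chosen with earlier results of these data known. All members are named; of each list, up to 3 of the largest rises and 3 of the largest falls past the threshold, with others named where a count or contrast called for it, after their values were seen. Cip2a was matched by a RefSeq synonym. The protein data were not used here.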

Additional observations from a re-analysis of the deposited data

Results flagged for a closer look

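In the 20 groups of 5 libraries formed by the 10 members, 1 library stood apart by Dixon's criterion, where chance alone flags about 1 in 20. Mycn was at 3.76 FPKM in tumour 1, with the nearest other tumour at 2.37 FPKM; the gap was 0.764 of the range of the 5 tumours, against a critical value of 0.71. Without tumour 1 the log2 change of Mycn was 0.58.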

How the results depend on the processing

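Over all genes tested, 4486 rose and 4329 fell with library medians subtracted, and 4759 rose and 3934 fell with quantile normalization, against 7442 and 2509 as deposited. With library medians subtracted, 4 members fell against 2, 1 corepressor gene fell against 0, 7 protein stability genes rose against 12, and 3 activated targets fell against 1. Activated targets that fell numbered 0 with quantile normalization and 2 with the replicate block. Stability genes that fell numbered 1 to 2 when any 1 library was left out and 1 without tumours 2 and 4. The log2 change of Mxd4, not past the threshold in any of these fits, was 0.02 without tumour 1, 0.02 without tumour 4, 0.03 without adjacent sample 5 and 0.01 without tumours 2 and 4, against -0.02, and -0.08 to 0.03 over the fits that left out 1 library. Mxi1 passed without tumour 5 (-0.28, limma adjusted p = 0.0383). The cause of these shifts was not tested. Other pseudocounts, filters and limma without trend or robust fitting changed no call of a member that was still tested; Mycn did not pass the filter of a mean of 5 FPKM.

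Libraries share only a number. Deviations of same-numbered libraries from their group means correlated at 0.02, 0.32, 0.02, 0.16 and 0.42 for numbers 1 to 5, and 2 of 5 tumours correlated best with their own number. With the replicate block 10067 genes passed against 9951, and 5 repressed targets fell against 7, without Cebpa (limma adjusted p = 0.0524) and Ddit3 (0.0644). The MLX branch then had 3 falls against 2. No member's call changed with the block. Depth limits Mycn most, the only member under 5 FPKM in every library.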
